A study of Mus musculus with 8 samples.

Results

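The anoctamins are a family of 10 membrane proteins, and their mRNAs were compared between dorsal root ganglia (DRGs) of mice lacking α-galactosidase A and of wildtype mice. Members were chosen by gene symbol, and the 10 genes Ano1 to Ano10 were represented by 14 of the 55681 probes on the array. The tested samples came from male α-Gal A(-/0) mice, a model of Fabry disease (FD) in which the X-linked gene Gla is disrupted, and the controls were male wildtype mice. The sample titles name the strain C57BL/6J for the wildtype mice, and the study's methods give a C57BL/6 background for the FD mice. Both groups were aged 20 to 24 weeks. DRGs of the lumbar levels L3 to L5 were taken, and RNA was measured in 4 FD samples and 4 wildtype samples, each pooled from 2 mice. Per the study's methods, these mice came from separate inbred colonies, so a difference between colonies and an effect of the genotype cannot be told apart.

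Anoctamins, also called the TMEM16 family, span the membrane many times and most of them respond to calcium inside the cell. Some let chloride pass when calcium rises, others let phospholipids change sides of the membrane (scramblases), and some sit largely in the endoplasmic reticulum. Ano1 is known in small sensory neurons as a chloride channel that is opened by heat and by calcium released downstream of receptors for inflammatory mediators. Sensory neurons hold a high chloride concentration, so that opening such a channel tends to depolarise them.

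Of the 10 anoctamins, 6 had a probe with a signal well above the scanner's background in every sample (Ano1, Ano3, Ano4, Ano6, Ano8 and Ano10), together 9 probes, and these entered the test. The remaining 5 probes did not, which left Ano2, Ano5, Ano7 and Ano9 without a tested probe. None of the 9 tested probes differed between FD and wildtype DRGs at an adjusted p under 0.05 (limma, Benjamini-Hochberg over all 29432 tested probes), against 3.07% of all tested probes. At an unadjusted p under 0.05 there was 1, an Ano3 probe, against 17.6% of all tested probes. In 0 of the 9 the values of both groups were free of overlap, against 13.4% of all tested probes.

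Each probe is 60 bases long and reads 1 stretch of a transcript, so the sequences show what was measured. Those of the 3 genes with more than 1 probe are given because their probes can be set beside each other, and that of Ano1 because this is the anoctamin best known in sensory neurons. Both Ano8 probes and 1 Ano10 probe are printed whole and the first 30 bases are printed of the others, 5′ to 3′. Capitals mark the longest run that the printed bases share with a probe of another anoctamin.
Ano1 A_55_P2038747: cttgtgcagtgatgtggtttccAATGATGt
Ano3 A_55_P2169775: agcaacattcctcaggatccttgGCTACTa
Ano3 A_55_P1977528: gaACATTTAcaacaacagagaagaaaaagt
Ano3 A_51_P307017: tatatgagattgtgTTGAGAAtgggggtca
Ano8 A_55_P1983412: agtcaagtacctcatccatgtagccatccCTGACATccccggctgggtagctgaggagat
Ano8 A_55_P2121772: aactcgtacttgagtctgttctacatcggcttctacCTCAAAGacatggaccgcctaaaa
Ano10 A_51_P349691: gttatcccTAAAGAGTtaccagctttccac
Ano10 A_55_P2040455: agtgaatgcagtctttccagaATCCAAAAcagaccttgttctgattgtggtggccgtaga

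Over whole probes, the longest run shared between probes of different anoctamins was 7 or 8 bases, and none of the 14 probes shared a stretch of 20 bases with a probe of another gene on the array. Their GC content ran from 35.0% to 55.0%, and the median of all probes was 43.3%. Positions are those of the scanner files, on mm9, and the span listed there for each of the 14 probes was 60 bases. Whether a position lies in a coding exon or a UTR is not stated here, because no annotation of that build was used.

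Gla itself, which encodes α-galactosidase A, had log2 signals of 16.71, 16.51, 16.51 and 16.62 in FD samples 1 to 4, against 16.69, 16.72, 16.49 and 16.56 in wildtype samples 1 to 4. The difference was -0.028 on the log2 scale (SE 0.075, adjusted p = 0.879 in limma). Where this probe lies relative to the disrupted part of the gene is not given in the sources used here, so its signal checks nothing about the labels. All values below are log2 signals after quantile normalization between arrays, and a level of 1 probe cannot be set against that of another probe.

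Ano1 encodes the calcium-activated chloride channel TMEM16A, and its single probe lies at chr7:151774604-151774663 on the minus strand. It read 11.37, 11.30, 11.02 and 11.01 in FD samples 1 to 4, against 11.22, 10.97, 11.32 and 11.21 in wildtype samples 1 to 4. Both groups covered nearly the same range, with 2 FD samples at the high end and 2 at the low end. The log2 fold change was -0.0055 (SE 0.11, 95% interval -0.25 to 0.24, adjusted p = 0.984 in limma). In folds, the interval runs from 1.19-fold lower to 1.18-fold higher in FD DRGs.

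Ano2 encodes TMEM16B, the calcium-activated chloride channel of olfactory neurons and photoreceptors. Its probe (chr6:125990063-125990122, plus strand) was well above background in 2 of 4 FD samples and in 4 of 4 wildtype samples. The log2 signals were 5.15, 5.65, 3.84 and 4.71 in FD samples 1 to 4, against 5.12, 5.02, 5.03 and 4.99 in wildtype samples 1 to 4. FD samples 1 and 2 lay above every wildtype sample, and FD samples 3 and 4, in which the probe was not well above background, lay below every one. When probes were also admitted that passed this filter in only 1 group, the log2 fold change was -0.20 (SE 0.33, adjusted p = 0.789 in limma).

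**Figure D1:**
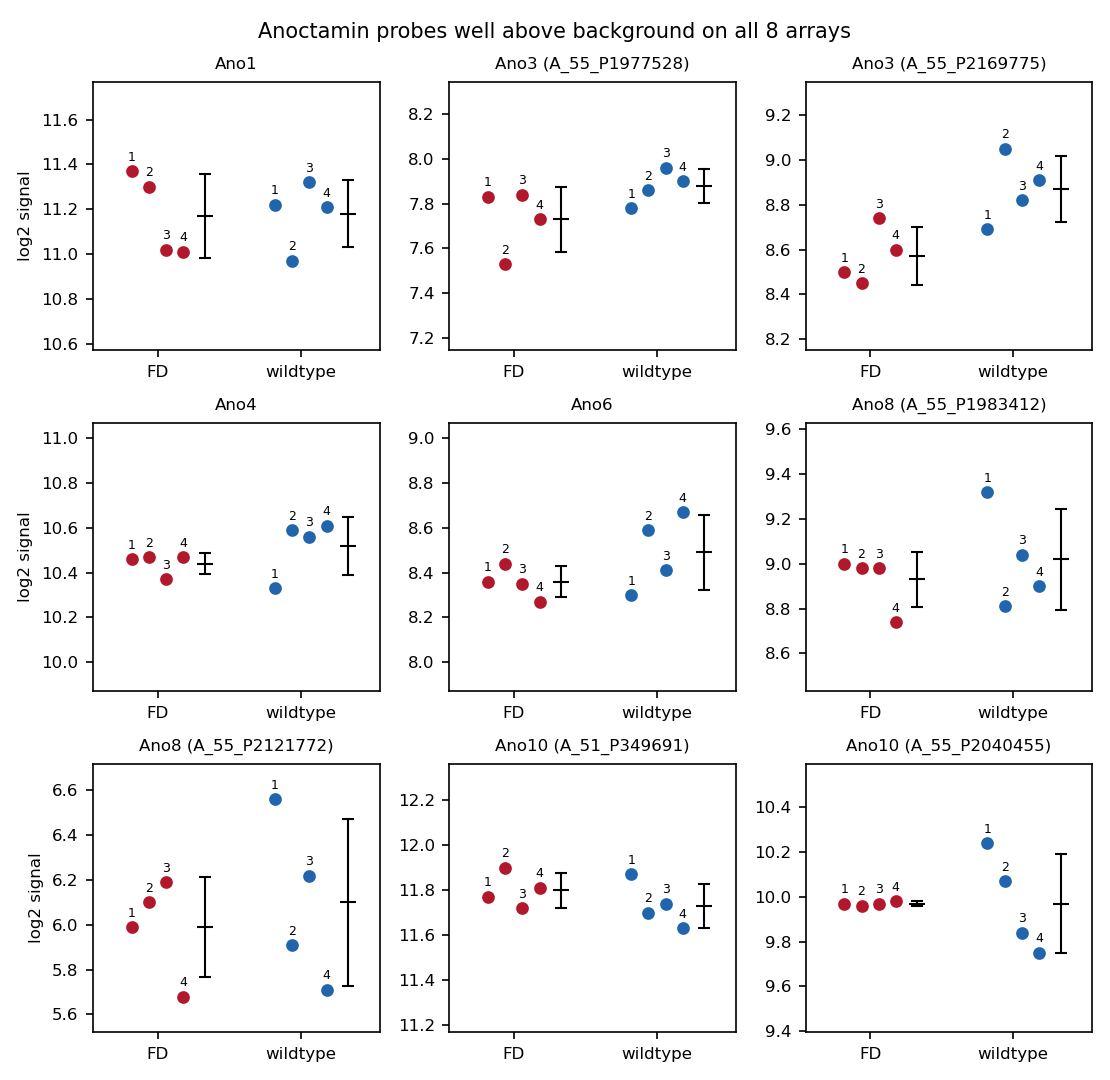
Log2 signal (y axis) of the 9 tested anoctamin probes, with FD samples in red on the left and wildtype samples in blue on the right of each panel. Numbers are the sample numbers, black bars give mean ± SD (n = 4 each), and every panel spans the same height of the log2 scale. The groups overlap in all 9 panels, least for Ano3 probe A_55_P2169775, and wildtype sample 1 is the highest or lowest of its group in 8 of them.

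Ano3 is expressed in neurons, has been linked to a human dystonia, and was described in rat DRG neurons as a partner of the sodium-activated potassium channel Slack. Its 3 probes lie on the minus strand of chromosome 2, between 25290 and 55135 bases apart, and they were designed on different transcripts. The probe at chr2:110553432-110553491, designed on a predicted RefSeq transcript, had the lowest p of the family. It read 8.50, 8.45, 8.74 and 8.60 in FD samples 1 to 4, against 8.69, 9.05, 8.82 and 8.91 in wildtype samples 1 to 4. Of the 4 FD samples, 3 lay below the lowest wildtype sample, and FD sample 3 lay between wildtype samples 1 and 3. The log2 fold change was -0.29 (SE 0.094, 95% interval -0.51 to -0.080), which is a level of 0.816 times that of wildtype, with an unadjusted p of 0.0126 and an adjusted p of 0.148 in limma. In all 17 alternative settings it stayed negative, with log2 fold changes between -0.35 and -0.22 and adjusted p between 0.0375 and 0.328. The lowest of these, the only one past the threshold, came from the fit that weights arrays by their agreement with the others.

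The second Ano3 probe, at chr2:110498297-110498356, read 7.83, 7.53, 7.84 and 7.73 in FD samples 1 to 4, against 7.78, 7.86, 7.96 and 7.90 in wildtype samples 1 to 4. Only FD samples 2 and 4 lay below the wildtype range. The log2 fold change was -0.14 (SE 0.082, 95% interval -0.33 to 0.043, adjusted p = 0.402 in limma), on the same side as the first probe and within its interval. Without FD sample 2, the lowest, it was -0.075. The third, at chr2:110528142-110528201, was not well above background in any sample, with log2 signals from 2.56 to 4.04 in FD samples and from 2.56 to 3.67 in wildtype samples. It gives no measure of the gene in these ganglia, and the 2 probes that do lie 55135 bases apart.

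Ano4, a neuronally expressed member reported to scramble phospholipids and to pass cations in cell lines, has 1 probe at chr10:88411803-88411862 on the minus strand. The log2 signals were 10.46, 10.47, 10.37 and 10.47 in FD samples 1 to 4, against 10.33, 10.59, 10.56 and 10.61 in wildtype samples 1 to 4. Wildtype sample 1 was the lowest of all 8, and the other 3 wildtype samples lay above all FD samples. The log2 fold change was -0.079 (SE 0.073, 95% interval -0.25 to 0.086, adjusted p = 0.610 in limma). Without wildtype sample 1 it was -0.14 (SE 0.048, adjusted p = 0.167).

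Ano6 encodes TMEM16F, the calcium-dependent scramblase whose loss causes the human bleeding disorder Scott syndrome, and its probe lies at chr15:95803331-95803390 on the plus strand. It read 8.36, 8.44, 8.35 and 8.27 in FD samples 1 to 4, against 8.30, 8.59, 8.41 and 8.67 in wildtype samples 1 to 4. FD values sat in the lower part of the wildtype range, with FD sample 4 below all wildtype samples. The log2 fold change was -0.14 (SE 0.089, 95% interval -0.34 to 0.066, adjusted p = 0.467 in limma). Without wildtype sample 4, the highest, it was -0.076.

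Ano8 has been described in cell lines as a tether between endoplasmic reticulum and plasma membrane. Its 2 probes, whose sequences are given above in full, lie on the minus strand at chr8:74002657-74002716 and chr8:74005854-74005913, 3197 bases apart. The brighter read 9.00, 8.98, 8.98 and 8.74 in FD samples 1 to 4, against 9.32, 8.81, 9.04 and 8.90 in wildtype samples 1 to 4. The other read 5.99, 6.10, 6.19 and 5.68 in FD samples, against 6.56, 5.91, 6.22 and 5.71 in wildtype samples. In both probes wildtype sample 1 was the highest and FD sample 4 the lowest of all 8 samples. Log2 fold changes were -0.094 (SE 0.12, 95% interval -0.36 to 0.17, adjusted p = 0.714 in limma) for the brighter probe and -0.11 (SE 0.19, 95% interval -0.53 to 0.32, adjusted p = 0.797) for the other. Without wildtype sample 1 both changed sign, to 0.0077 and 0.045.

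Ano10, mutated in a recessive human cerebellar ataxia, has 2 probes on the minus strand at chr9:122085194-122085253 and chr9:122160266-122160325, 75072 bases apart. The first read 11.77, 11.90, 11.72 and 11.81 in FD samples 1 to 4, against 11.87, 11.70, 11.74 and 11.63 in wildtype samples 1 to 4. Its log2 fold change of 0.064 (SE 0.069, 95% interval -0.093 to 0.22, adjusted p = 0.669 in limma) was the only positive one of the 9, and it was 0.030 without FD sample 2 or wildtype sample 4 and 0.11 without wildtype sample 1. The second probe was nearly constant in FD samples, at 9.97, 9.96, 9.97 and 9.98, and spread over 10.24, 10.07, 9.84 and 9.75 in wildtype samples 1 to 4. Both wildtype extremes lay outside the FD range, on either side of it. The group means were equal at 9.97 (SD 0.0094 in FD and 0.22 in wildtype, n = 4 each), with a log2 fold change of -0.0060 (SE 0.10, 95% interval -0.24 to 0.23, adjusted p = 0.983).

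**Figure D2:**
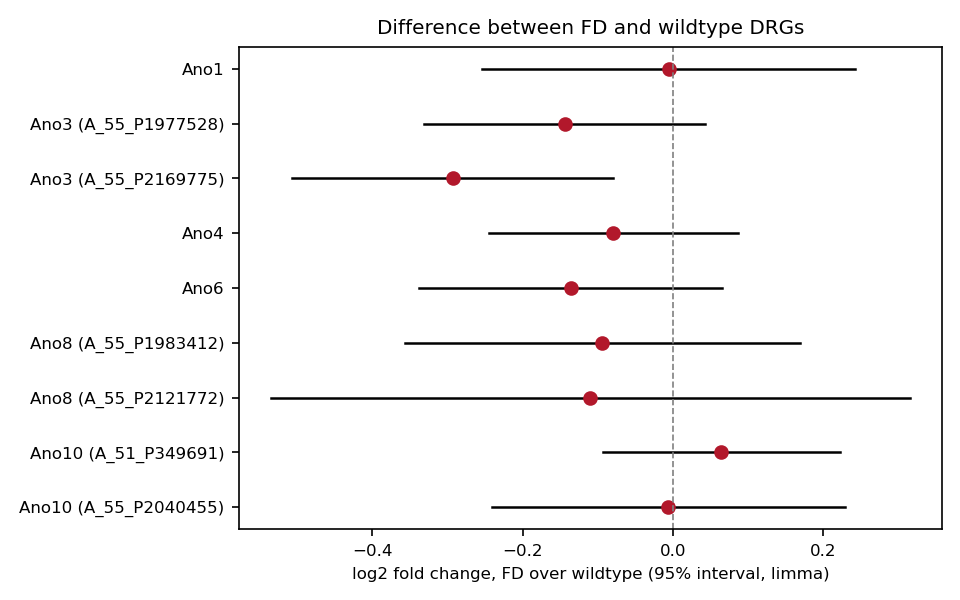
Log2 fold change of FD over wildtype (x axis) for the 9 tested anoctamin probes, with points for the estimate and lines for the 95% interval from limma (n = 4 per group). Only the interval of Ano3 probe A_55_P2169775 leaves out 0, and all intervals lie between -0.53 and 0.32.

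The 3 other anoctamins were not measured above background in either group as a whole. Ano5, mutated in human muscular dystrophy, was not well above background in any sample (chr7:58849666-58849725, plus strand), with log2 signals from 2.48 to 2.51 in FD samples and from 2.51 to 2.56 in wildtype samples. Ano7, known from human prostate, was not well above background in any sample either (chr1:95300013-95300072, plus strand), with 2.62 to 4.44 in FD samples and 2.99 to 3.87 in wildtype samples. Ano9, found in epithelia, was well above background in 1 FD and 1 wildtype sample (chr7:148287118-148287177, minus strand), with 4.34, 5.56, 3.80 and 3.90 in FD samples 1 to 4, against 3.31, 4.29, 2.43 and 4.88 in wildtype samples 1 to 4. For Ano5 all FD values lay below all wildtype values, at signals that were not well above background in any sample. Such signals give no measure of a difference between the groups, and they do not show that the transcripts were absent.

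**Figure D3:**
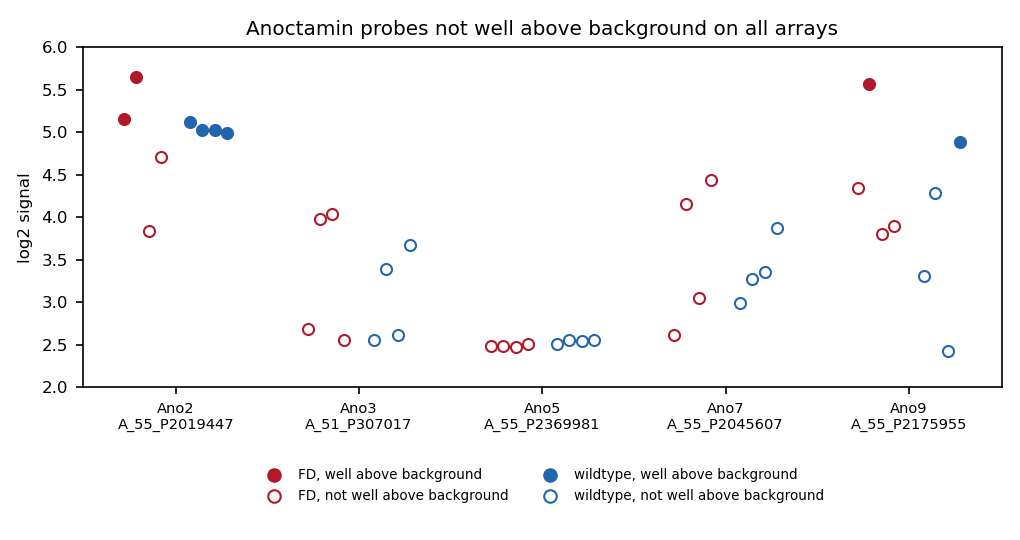
Log2 signal (y axis) of the 5 anoctamin probes that were not tested, 1 point per sample, with FD in red on the left and wildtype in blue on the right of each pair. Filled points were well above background and open points were not. Ano2 is filled in 2 FD and 4 wildtype samples, Ano9 in 1 of each, and the other 3 probes in none.

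Across the 9 tested probes, 8 log2 fold changes were below 0 and 1 was above 0, with a median of -0.094 against 0.019 over all tested probes. Sizes were ordinary for these arrays, since the median absolute log2 fold change was 0.094 among the 9 probes and 0.10 over all tested probes. In this fit the intervals reached at most 1.45-fold lower and 1.24-fold higher in FD DRGs, both for the dimmer Ano8 probe. This holds for that fit alone, and the slide row as a block moved the same probe further down. How many of the 9 were negative depended on single samples and on scaling, with 4 without wildtype sample 1 and 6 after scaling to the 75th percentile. Wildtype sample 1 was the lowest of its group in 4 and the highest in 4 of the 9 probes, and over all tested probes it was at 1 end of its group in 68.7%.

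Position on the slide was not balanced, because FD samples 1, 2 and 3 and wildtype sample 1 lay in row 1, and FD sample 4 and wildtype samples 2, 3 and 4 in row 2. Within rows, the first Ano3 probe differed by -0.13 in row 1 and by -0.32 in row 2, FD minus wildtype. The second Ano3 probe differed by -0.05 and -0.17, the Ano8 probes by -0.34 and -0.17 and by -0.47 and -0.27, in row 1 and row 2. Signs differed between the rows for Ano1 (0.01 and -0.15), Ano4 (0.10 and -0.12), Ano6 (0.09 and -0.29) and both Ano10 probes (-0.07 and 0.12 for the brighter, -0.27 and 0.09 for the other). Each row holds a single sample of 1 of the groups, so these differences have no error of their own. With the row as a block in the fit, the Ano8 probes had log2 fold changes of -0.26 (SE 0.078, adjusted p = 0.118 in limma) for the brighter and -0.37 (SE 0.13, adjusted p = 0.159) for the other, further from 0 than without it. Closer to 0 than without it were the first Ano3 probe at -0.22 (SE 0.10, adjusted p = 0.233 in limma), the second Ano3 probe at -0.11 and Ano6 at -0.10. So were Ano4 at -0.0073 and the brighter Ano10 probe at 0.025. Ano1 was at -0.072 and the dimmer Ano10 probe at -0.091, and no anoctamin probe passed the threshold.

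Genes of related families and of chloride transport, phospholipid transport and calcium supply were examined as 5 lists with 113 gene symbols. Of these, 93 had a tested probe, and the brightest probe of each gene was taken. In these lists 2 genes were higher in FD DRGs at an adjusted p under 0.05, against 2.02% of all 21063 tested genes, and 1 was lower, against 1.1%. The 3 calls together were 3.23% of the 93 genes, close to the 3.12% among all tested genes. Median log2 fold changes of the lists lay between -0.027 and 0.033, and the median of all tested genes was 0.019.

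The closest relatives of the anoctamins are the Tmc proteins, which include parts of the hair cell transduction channel, and the Tmem63 proteins, cation channels opened by membrane stretch. Among 9 tested genes of these 2 families 0 were higher and 1 was lower. Tmem63a read 10.65, 10.65, 10.63 and 10.68 in FD samples 1 to 4, against 10.92, 10.91, 10.94 and 10.99 in wildtype samples 1 to 4. Its groups did not overlap and each was tight, with a log2 fold change of -0.29 (SE 0.048, adjusted p = 0.0180 in limma). The call was lost without any 1 of FD samples 1 to 4 or without wildtype sample 3 or 4, with adjusted p between 0.0552 and 0.0704, and the log2 fold change then still lay between -0.29 and -0.27.

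Calcium sources and partners of Ano1, such as inositol trisphosphate receptors, store-operated channels and proteins that link membrane to actin, gave both calls in the other direction, 2 of 21 tested genes higher and 0 lower. Orai3, a subunit of store-operated calcium channels, read 12.19, 12.18, 12.06 and 12.12 in FD samples 1 to 4, against 11.80, 11.93, 11.82 and 11.78 in wildtype samples 1 to 4. All FD values lay above all wildtype values, with a log2 fold change of 0.31 (SE 0.059, adjusted p = 0.0297 in limma). A second Orai3 probe rose as well (log2 fold change 0.44, SE 0.096, adjusted p = 0.0495), and the third had a log2 fold change of -0.17 (SE 0.47, adjusted p = 0.885). Ezr, which encodes ezrin, a linker of membrane proteins to actin, read 11.52, 11.45, 11.22 and 11.26 in FD samples, against 10.84, 10.88, 10.98 and 11.05 in wildtype samples. Again the groups did not overlap, and the log2 fold change was 0.42 (SE 0.085, adjusted p = 0.0369). Orai3 lost its call without FD sample 1, 2 or 4 or wildtype sample 3 or 4 (adjusted p between 0.0826 and 0.106), and Ezr without any 1 sample other than FD sample 3 (between 0.0582 and 0.118). Both calls were also lost with the slide row as a block (adjusted p = 0.0606 for Orai3 and 0.0777 for Ezr) and with the methods' t-test (0.0515 and 0.131).

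In the other 3 lists 0 genes passed the adjusted threshold in limma, with 4 of 21, 3 of 18 and 5 of 24 at an unadjusted p under 0.05, near the 17.6% of all tested probes. Among other chloride channels the nearest were Ostm1, the partner of the lysosomal chloride transporter ClC-7 (log2 fold change 0.24, SE 0.052, adjusted p = 0.0512), and Lrrc8b, a subunit of volume-regulated anion channels (-0.55, SE 0.15, adjusted p = 0.0912). For Lrrc8b, wildtype sample 1 read 12.00 and the other wildtype samples 11.35 to 11.41, against 10.90 to 11.18 in FD samples. Lrrc8b passed the threshold with the slide row as a block (log2 fold change -0.73, adjusted p = 0.0275), with array weights (-0.41, adjusted p = 0.0406) and without wildtype sample 1 (-0.39, adjusted p = 0.0411). Ostm1 passed it with 4 alternatives, among them the methods' t-test (adjusted p = 0.0404).

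Among chloride transporters and the kinases that set their activity, the smallest p belonged to Slc4a1, the anion exchanger of red blood cells, with -0.67 (SE 0.25, adjusted p = 0.213), and Slc12a4, a potassium-chloride cotransporter, with -0.21 (SE 0.081, adjusted p = 0.227). Among other scramblases and flippases they belonged to Xkr8, a scramblase cleaved by caspases in dying cells, with 0.18 (SE 0.053, adjusted p = 0.126), and Atp8b3, a flippase subunit, with 0.36 (SE 0.14, adjusted p = 0.218). The red cell markers, which include Slc4a1, had 0 of 6 tested genes called and a median log2 fold change of -0.40. The log2 of their summed signal ran from 16.22 to 16.95 in FD samples and from 16.75 to 17.27 in wildtype samples, and their part in the Slc4a1 value was not tested.

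**Figure D4:**
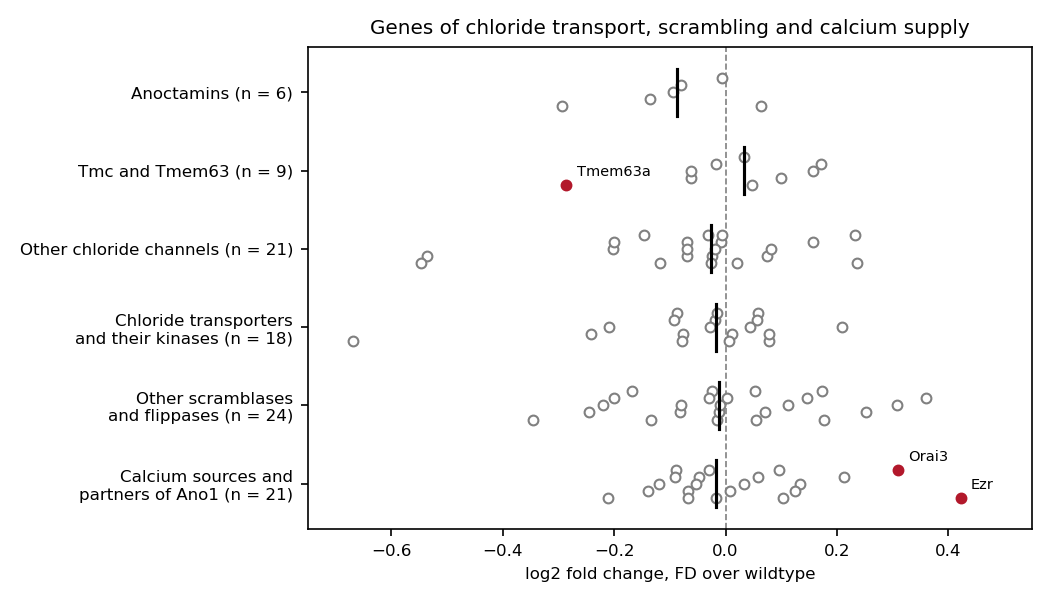
Log2 fold change of FD over wildtype (x axis) for the 6 tested anoctamin genes and for the 5 lists of genes that work beside them, 1 point per gene by its brightest probe, with n the tested genes. Red filled points have an adjusted p under 0.05 in limma and vertical bars are medians. The called genes are Tmem63a on the left and Orai3 and Ezr on the right, and no anoctamin is called.

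DRGs hold several cell types, and in such bulk samples fewer cells of a type and less RNA per cell cannot be told apart. All 14 sensory neuron markers were measured, led by Calca and Nefh, with a median log2 fold change of -0.052 and 1 called, Tac1, at 0.34 (SE 0.075, adjusted p = 0.0493 in limma). The share called among all tested genes was 3.12%, for this list and those below. At an unadjusted p under 0.05 there were 6 of the 14, against 17.6% of all tested probes. Of these, Tac1, Calca and Trpv1 were higher in FD DRGs, and Mrgprd, Avil and Scn10a were lower. The log2 of the summed signal of all 14 ran from 19.65 to 19.69 in FD samples and from 19.58 to 19.66 in wildtype samples. Satellite glia, led by Apoe and Fabp7, had 0 of 7 called and a median of 0.084. Markers of Schwann cells (led by Pmp22), fibroblasts (Dcn and Col1a2), endothelium (Flt1 and Kdr), smooth muscle (Rgs5 and Tagln) and macrophages (Itgam and Csf1r) gave 0 calls in each of the 5 lists, with medians from -0.21 to -0.10. The log2 of the summed signal was 17.08 to 17.22 in FD samples against 17.23 to 17.38 in wildtype samples for Schwann cells, 16.68 to 16.87 against 16.93 to 17.14 for fibroblasts, and 13.20 to 13.34 against 13.36 to 13.54 for endothelium, so that FD samples lay below wildtype samples without overlap in these 3 lists. It overlapped for smooth muscle (12.95 to 13.10 in FD against 13.04 to 13.44 in wildtype samples) and for macrophages (14.56 to 14.75 in FD against 14.59 to 14.84 in wildtype samples). Among all tested probes, 13.4% had groups free of overlap. Such a sum mostly follows the brightest probes of a list. Log2 fold changes of single genes ran from -0.22 to -0.0085 for Schwann cells and from -0.50 to -0.027 for fibroblasts. They ran from -0.36 to 0.13 for endothelium, from -0.57 to -0.019 for smooth muscle and from -0.46 to 0.51 for macrophages. In the same order, 3 of 10, 3 of 10, 4 of 9, 1 of 9 and 2 of 10 genes had an unadjusted p under 0.05 in limma. The share among all tested probes was 17.6%. The first Ano3 probe had a log2 fold change below 0, and the part of the cells of these 5 lists in its value was not tested.

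Of the tissues that dissection could bring along, few markers were measured, 3 of 10 for skeletal muscle (Pvalb and Tnnc2 the brightest), 3 of 7 for adipocytes (Cfd and Fabp4), 3 of 7 for spinal cord (Slc5a7 and Mog) and 3 of 6 for melanocytes (Tyrp1 and Mitf). Pvalb need not come from muscle in a DRG, and the source of its signal was not tested. Tyrp1, an enzyme of pigment synthesis, was higher in FD DRGs by 1.15 on the log2 scale (SE 0.14, adjusted p = 0.00336 in limma). The other tested melanocyte genes, Mitf and Tyr, differed by 0.11 and -0.083 (adjusted p = 0.590 and 0.737). Slc5a7, the choline transporter, was higher by 0.34 (SE 0.073, adjusted p = 0.0474), and 1 of its 2 tested probes was called. Chat, of the same list, was at -0.46 (SE 0.18, adjusted p = 0.239) and Mog at 0.19 (SE 0.077, adjusted p = 0.257). Cfd, which encodes adipsin, ranged from 6.09 to 7.25 in FD samples, against 7.90, 10.56, 9.98 and 6.61 in wildtype samples 1 to 4.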

How the data were processed

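Each sample was hybridized in 1 color to 1 of the 8 arrays of 1 Agilent slide. The deposited intensity values had been detrended and background-adjusted in the scanner software (Agilent Feature Extraction, version 10.7.3.1). The authors also deposited a table of log2 values, quantile normalized in GeneSpring, which served as an alternative. Here, control spots and 93 to 221 outlier spots per array were left out, 0 were saturated, and log2 processed signals were averaged per probe and quantile normalized. Between 56.5% and 60.8% of probes per array were well above background, and 29432 were on all 8. FD was compared with wildtype by limma 3.58.1 in R 4.3.3, with Benjamini-Hochberg adjustment over these probes and a threshold of 0.05. The test was also run on simulated data with independent noise in each sample, and the outcome of that run is not used here. The titles number the samples of each group and name no pairs, and the samples were treated as unpaired. Deviations from the group means correlated between samples of equal number at Pearson r of 0.063, -0.25, -0.047 and -0.021 for numbers 1 to 4. The number of arrays limits the precision, and p-values measure the spread between these pools.

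Probes were named through their RefSeq accession where it matched (28026 probes, 1651 symbols updated), and all 10 anoctamins matched. The members and all gene lists were chosen with earlier results of these data known. Named are all anoctamins, Gla, the called genes of the 5 lists of genes that work beside them (otherwise the 2 with the smallest p), and the 2 brightest genes of each marker list, of which 1 is not reported here. Tac1, further probes of Orai3 and the values of Tyrp1, Slc5a7 and Cfd were added after their values were seen. So were the sensory neuron markers named with Tac1, the values of Mitf, Tyr, Chat and Mog, and the ranges of single marker genes. Alternatives were the methods' t-test, scaling to the 75th percentile, normexp background correction with an offset of 50, no filter or a filter within 1 group, the authors' table, the replicate number or slide row as a block, array weights, and leaving out each sample.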

Additional observations from a re-analysis of the deposited data

Results flagged for a closer look

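In 3 of the 28 groups of 4 samples examined (14 probes in each genotype), the gap between 1 sample and the nearest of the other 3 exceeded Dixon's 95% critical value as a share of the group's range, and chance alone gives this in about 1 in 20 groups. FD sample 3 read 10.37 for Ano4, with the other FD samples at 10.46 to 10.47. Wildtype sample 1 read 10.33 for the same probe, with the other wildtype samples at 10.56 to 10.61. FD sample 4 read 8.74 for Ano8 probe A_55_P1983412, with the other FD samples at 8.98 to 9.00.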

How the results depend on the processing

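No anoctamin probe was called in 16 of the 17 alternatives, and the array weights called 1, Ano3 probe A_55_P2169775. Over all tested probes 904 were called, 266 with the methods' t-test, 556 of 55440 with no filter on background and 2102 with array weights. The replicate number as a block gave 284, with 0 anoctamin probes and 0 genes of the lists. Leaving out 1 sample gave 408 to 1043 called probes, 0 anoctamin probes and 0 to 3 genes of the lists. The lists had 3 called genes, 1 with no filter and 5 with array weights. Ano1 turned positive at the 75th percentile scaling (0.0201) and lay between -0.076 and 0.048 with single samples left out. Ano10 probe A_55_P2040455 turned positive at that scaling (0.0057), with array weights (0.11) and with normexp (0.0194), and lay between -0.083 and 0.082 with single samples left out. With single samples left out, the brighter Ano8 probe lay between -0.16 and 0.0077, the other Ano8 probe between -0.24 and 0.045, the second Ano3 probe (A_55_P1977528) between -0.18 and -0.075, Ano4 between -0.14 and -0.051, Ano6 between -0.20 and -0.076 and Ano10 probe A_51_P349691 between 0.030 and 0.11. The cause was not tested. In wildtype sample 1 the array weight was lowest, at 0.243. Without filter, the 5 untested anoctamin probes had adjusted p from 0.603 to 0.876. Signal over background limits Ano2, Ano5, Ano7 and Ano9.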
